A study of Mus musculus with 19 samples.

Results

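The male-specific lethal (MSL) complex was followed through its 4 genes with probes on the array, Msl3, Msl1, Msl2 and Kat8, out of 34741 gene names carried by the non-control probes. They are read by 6 of the 55681 probes, taken by gene name in the array files, where Kat8 stands under its older name Myst1. Msl3 was selected on its processed signal and its detection flag over the 4 cell populations, which earlier work on these same arrays showed to be low in 1 of them, and its partners were chosen by their membership of the complex. Its levels and differences are therefore given as a description with no test, and the tests below are those of its 3 partners and of related genes.

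The MSL complex is a histone acetyltransferase assembly. Kat8, also called MOF, is its catalytic subunit and acetylates a lysine in the tail of histone H4, a mark of open chromatin. Msl1 is the scaffold on which the complex is built, Msl2 is a RING finger protein with ubiquitin ligase activity, and Msl3 carries a chromodomain and an MRG domain through which it recognises methylated histones and stimulates Kat8. In fruit flies the complex raises the output of the single male X chromosome. In mammals it acts in both sexes, and Kat8 is also the enzyme of the separate NSL complex at the promoters of housekeeping genes.

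Sorted CD4 T cells were profiled for messenger RNA on 19 single-colour arrays. The animals were adult females of C57Bl/6 background, spleen and lymph nodes were the source, and all carried the genotype Tg IL-2-GFP x FOXP3mRFP, in which green fluorescence (GFP) reports IL-2, a T cell growth factor, and red fluorescence (RFP) reports Foxp3, the transcription factor of regulatory T cells. The populations were GFP+RFP+ cells (4 arrays, replicates 1, 3, 4 and 5), GFP-RFP+ cells (5 arrays), GFP+RFP- cells (5 arrays) and GFP-RFP- cells (5 arrays), and no treatment is labelled. The title of the series puts the question as the relation of regulatory cells to IL-2 producers. The cell type tag calls every sample conventional while the subtype of the RFP+ samples calls them regulatory, so the populations are named here by their colours. The sources used here do not say whether animals were pooled or whether each replicate is a different animal. The p-values therefore cover only the variation among these samples, and part or all of it may be technical.

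RFP+ arrays carried less signal. The share of probes well above background, as flagged by the scanner software, was 32.2% ± 4.94 (SD, n = 4) on GFP+RFP+ arrays, 29.6% ± 6.78 (n = 5) on GFP-RFP+ arrays, 36.9% ± 4.29 (n = 5) on GFP+RFP- arrays and 40.6% ± 2.86 (n = 5) on GFP-RFP- arrays. Of 8 T cell markers, 6 to 8 were above background on each GFP+RFP+ and GFP-RFP+ array, 5 to 8 on GFP+RFP- arrays and 8 on every GFP-RFP- array. Their summed intensity was 20300 to 58800 on GFP+RFP+, 50300 to 112000 on GFP-RFP+, 88300 to 183000 on GFP+RFP- and 104000 to 175000 on GFP-RFP- arrays, with no overlap of GFP+RFP+ with either RFP- population. Foxp3 itself did not separate the populations sorted by its reporter: its intensity was 37 to 130 on GFP+RFP+ arrays, 19.3 to 14000 (median 76.4) on GFP-RFP+ arrays, 38.7 to 87.2 on GFP+RFP- arrays and 42.5 to 76 on GFP-RFP- arrays, with only GFP-RFP+ replicate 3 bright. Foxp3 passed the background flag on every array. Il2 passed the background flag on 1 of 4 arrays from GFP+RFP+ cells, 0 of 5 from GFP-RFP+, 2 of 5 from GFP+RFP- and 2 of 5 from GFP-RFP- cells. Of 9 regulatory T cell markers, 4 to 8 were above background on GFP+RFP+, 2 to 8 on GFP-RFP+, 4 to 8 on GFP+RFP- and 3 to 7 on GFP-RFP- arrays. Their summed intensity overlapped between all populations, at 1720 to 6890, 148 to 33500, 776 to 20500 and 3540 to 14000 in the same order. Markers of other cells were present in every population. The summed intensity of 7 myeloid and dendritic markers was 71600 to 109000 on GFP+RFP+, 62400 to 143000 on GFP-RFP+, 98100 to 112000 on GFP+RFP- and 84000 to 118000 on GFP-RFP- arrays. Of these 7, 3 to 5 were above background on GFP+RFP+, 2 to 5 on GFP-RFP+, 4 to 5 on GFP+RFP- and 3 to 6 on GFP-RFP- arrays. Of 8 B cell markers, 3 to 5 were above background on GFP+RFP+ and GFP-RFP+ arrays, 4 to 6 on GFP+RFP- and 3 to 6 on GFP-RFP- arrays. The summed intensity of 6 erythroid and platelet markers was 897 to 30200 on GFP+RFP+, 63.5 to 48400 on GFP-RFP+, 932 to 67400 on GFP+RFP- and 31200 to 111000 on GFP-RFP- arrays, and that of 7 CD8 T and NK cell markers was 88 to 8370, 1110 to 15500, 2000 to 13100 and 9600 to 23000 in the same order. Of the erythroid and platelet markers, 2 to 3 were above background on GFP+RFP+, GFP+RFP- and GFP-RFP- arrays and 1 to 3 on GFP-RFP+ arrays. Of the CD8 T and NK cell markers, 1 to 3 were above on GFP+RFP+ and 1 to 4 on GFP-RFP+ arrays. On GFP+RFP- arrays 2 to 5 of them were above, and on GFP-RFP- arrays 2 to 4. The part of these cells in the results was not tested. With 4 or 5 arrays per population, their number sets the precision of the results.

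The probes are shown because each gene's result rests on the few letters that capture it, and the first 30 of the 60 bases of 5 of the 6 are printed 5′ to 3′ as the array files give them. Capitals mark an uninterrupted repeat of the unit GTT.
Msl3 (chrX:165092103-165092162, mm9, minus strand): gcctgtcttgtttgagattttacagccata
Msl1 probe 1 (chr11:98662234-98662293, mm9, plus strand): tgccaaagaccgacagtcttcctttactgc
Msl1 probe 3 (chr11:98668442-98668501, mm9, plus strand): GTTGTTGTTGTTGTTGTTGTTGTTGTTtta
Msl2 (chr9:101005796-101005855, mm9, plus strand): gcttgttctaagaaaaatactgctagggaa
Kat8 (chr7:135069179-135069238, mm9, plus strand): tgcttgggatctgggtttcctggcctctaa

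The 6 probes differ in how specific their letters are. Shared runs were counted on either strand, so a match may be to the reverse complement of the other probe. Msl1 probe 3 opens with a 27-base repeat and shares a run of 15 bases with 26 other probes, all of other genes. Msl1 probes 1 and 2 share such a run with 1 probe each and those of Msl2, Msl3 and Kat8 with 0. A 21-base stretch of the repeat is found on either strand in 6 of the 55681 probes. The longest run shared by the probes of Msl3 and of its close relative Msl3l2 is 8 bases. Each gene has a single probe except Msl1 with 3, and the Kat8 probe is spotted 10 times on each array. Every one of the 6 passed the filter for levels, which asked for a signal well above background on at least 4 arrays: Msl1 probe 3 was above on 19, Msl2 on 18, Msl1 probe 2 on 15, Msl3 on 14, Kat8 on 11 and Msl1 probe 1 on 8 arrays. A probe, of these or of the related genes below, could pass through the populations in which it was high.

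Msl3 was bright in 3 populations and missing in the fourth. Its intensity was 2036, 6050, 3969 and 1967 in GFP+RFP+ cells (replicates 1, 3, 4 and 5), and 4.66, 3.27, 6.14, 2.99 and 3.17 in GFP-RFP+ cells (replicates 1 to 5). It was 3989, 5919, 3243, 780 and 2768 in GFP+RFP- cells and 3039, 7372, 3150, 809 and 5726 in GFP-RFP- cells. No GFP-RFP+ array overlapped any other array, and none of the 5 was well above background, while all 14 others were. On those 5 arrays the spot read 17 to 36.6 before correction against a local background of 18 to 29. In both RFP- populations replicate 4 was the dimmest and replicate 2 the brightest. In bulk samples such as these, fewer cells that contain a transcript and less of it per cell cannot be told apart.

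**Figure D1:**
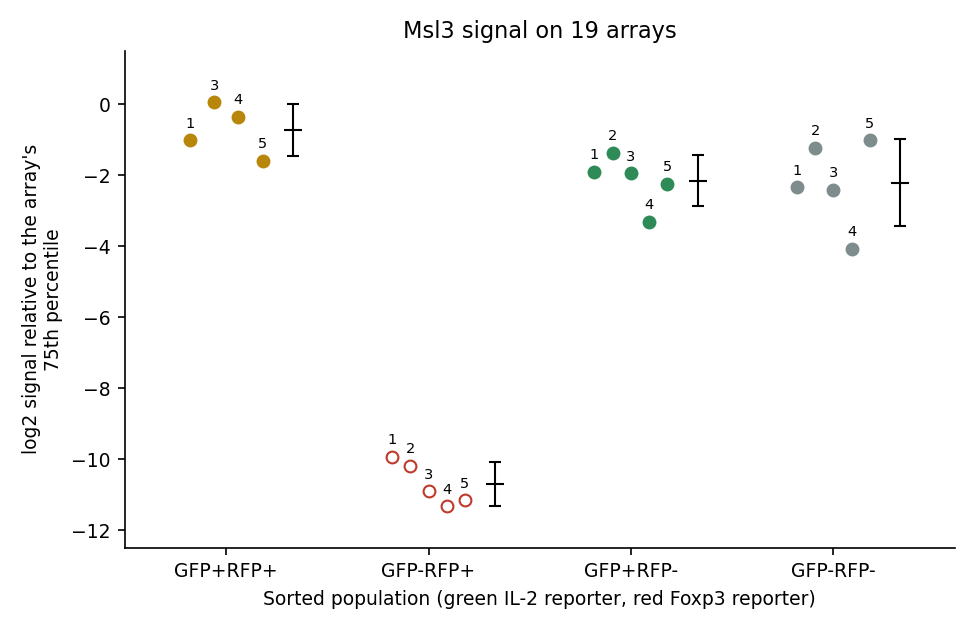
Log2 signal of the Msl3 probe relative to each array's 75th percentile (vertical axis) on every array of the 4 populations (horizontal axis), with the replicate number beside each point and the population mean ± SD. The 5 GFP-RFP+ arrays lie between -11.33 and -9.94, the 14 others between -4.08 and 0.05.

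After scaling each array to its 75th percentile of signal, Msl3 averaged -0.73 ± 0.73 log2 units in GFP+RFP+ cells (SD, n = 4), -10.7 ± 0.61 in GFP-RFP+ cells (n = 5), -2.16 ± 0.72 in GFP+RFP- cells (n = 5) and -2.22 ± 1.22 in GFP-RFP- cells (n = 5). The order of levels was thus GFP+RFP+, GFP+RFP-, GFP-RFP- and GFP-RFP+, and the first 3 overlapped. Because the GFP-RFP+ signal lay under the dimmest probes called above background on those arrays (-9.37 to -7.74 on the log2 scale), its distance is a bound, taken from the mean of the bright population and, on each dim array, the lowest signal well above background. Msl3 was at least 92.6-fold lower in GFP-RFP+ than in GFP-RFP- cells and at least 96.2-fold lower in GFP-RFP+ than in GFP+RFP- cells, and at least 258-fold higher in GFP+RFP+ than in GFP-RFP+ cells. These folds hold for the processed signal as scaled here, and normexp correction with its offset gave smaller log2 differences of -4.67 for GFP-RFP+ against GFP-RFP- and 6.16 for GFP+RFP+ against GFP-RFP+. In the authors' series table, which is on a log2 scale, the 5 GFP-RFP+ arrays read 2.18 to 2.36 and the 14 others 9.37 to 13.45.

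As measured differences of log2 level from the limma model, Msl3 had -8.49 ± 0.57 (SE) for GFP-RFP+ against GFP-RFP- and 9.97 ± 0.61 for GFP+RFP+ against GFP-RFP+ cells. GFP+RFP+ against GFP+RFP- cells gave 1.42 ± 0.61, with overlapping arrays, and GFP+RFP- against GFP-RFP- cells gave 0.06 ± 0.57. The IL-2 reporter difference among RFP+ cells exceeded that among RFP- cells by 9.91 ± 0.83 log2 units. The arrays sit on 3 slides, each holding several populations. Within slides 1, 2 and 3 the GFP-RFP+ against GFP-RFP- difference was -8.05, -7.54 and -10.22, and the GFP+RFP+ against GFP-RFP+ difference was 9.93, 9.83 and 9.64. Slide 2 held only replicate 2 of GFP-RFP+ and replicate 4 of GFP+RFP+ cells. Slide 3 held only replicate 5 of GFP+RFP+ and of GFP-RFP- cells, so the values of both slides rest on single arrays. With slide as a block they were -8.47 and 9.93.

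The detection flags that chose Msl3 can be set beside those of other genes, as a description of the choice and not as support for it. Of 6727 genes above background on all 14 arrays of the other 3 populations, Msl3 alone was above background on 0 of the 5 GFP-RFP+ arrays. Just beside it, 5 genes were above on 1 array (AI662270, Baz1a, Gm6958, Hmgn1 and Ksr1) and 83 on 2, whereas 5674 were above on all 5. The same count for each other population gave 0 of 6010 genes missing from all GFP+RFP+ arrays, 0 of 5803 from all GFP+RFP- arrays and 0 of 5742 from all GFP-RFP- arrays.

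How often such genes dropped out differed between arrays. GFP-RFP+ replicates 1 to 5 missed 8.04%, 4.76%, 0.253%, 5.69% and 2.82% of the 6727 genes. By the same count, GFP+RFP+ replicates 1, 3, 4 and 5 missed 3.13%, 1.15%, 0.666% and 1.65% of 6010 genes. The share was 0.276% to 0.689% of 5803 genes on GFP+RFP- arrays and 0.0697% to 0.644% of 5742 genes on GFP-RFP- arrays. Replicate 3, with 39.4% of its probes above background, missed only 17 of the 6727, Msl3 among them. Bright and missing signal for 1 gene was widespread: of 12710 genes that reached an intensity of 1000 on at least 1 array, 8692 (68.4%) were below background on at least 1 other, and 3844 of them on 9 or more. With each array's percent of detected probes as a covariate, the Msl3 differences were -7.84 for GFP-RFP+ against GFP-RFP- and 9.81 for GFP+RFP+ against GFP-RFP+. Without the arrays under 30% detected they were -8.53 and 10.11. Msl3 was chosen on these signals and percent detected itself differed between populations, so the part of array quality was not tested.

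**Figure D2:**
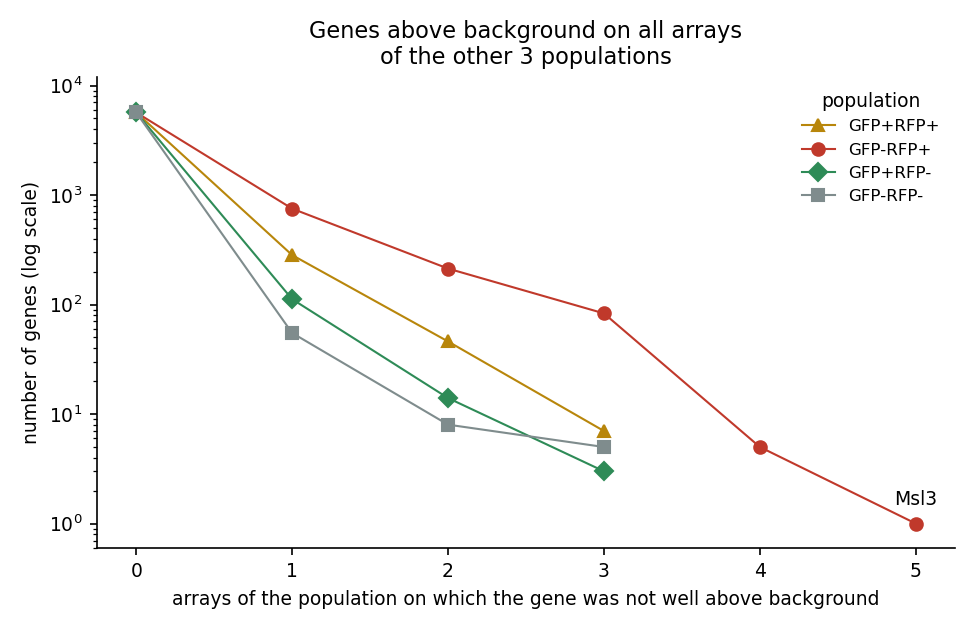
Number of genes (vertical axis, log scale) by how many arrays of a population the gene was not well above background on (horizontal axis), for genes above background on all arrays of the other 3 populations. Counts of 0 are not drawn, and Msl3 is the 1 gene at 5 arrays of GFP-RFP+ cells.

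Msl2, the RING finger subunit, was detected in all populations. Its intensity was 1730, 837, 1531 and 3381 in GFP+RFP+ cells, and 4.99, 3810, 4013, 2051 and 4278 in GFP-RFP+ cells. It was 2534, 2306, 453, 4451 and 3830 in GFP+RFP- cells and 1579, 7364, 5072, 1965 and 2210 in GFP-RFP- cells. The populations overlapped, and the single array not above background was GFP-RFP+ replicate 1, the array with the fewest probes detected (22%). On the other 4 GFP-RFP+ arrays, where Msl3 was missing, the intensity of Msl2 lay within the range of the other populations. After scaling, GFP-RFP+ replicates 2 and 5, at -0.01 and -0.76 log2 units, stood just above the highest array of any other population (-0.8).

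Msl1, the scaffold, was read by 3 probes that disagreed. Probe 3, the brightest and the 1 used for the gene, had intensities of 17440, 14745, 18537 and 23969 in GFP+RFP+ cells and 4254, 7681, 31715, 19409 and 15134 in GFP-RFP+ cells. It had 36179, 31090, 33749, 16818 and 24731 in GFP+RFP- cells and 47872, 32593, 36644, 20577 and 30234 in GFP-RFP- cells. It was above background on every array, with populations overlapping after scaling (on the log2 scale GFP+RFP+ arrays averaged 1.82 ± 0.34, GFP-RFP+ arrays 0.95 ± 0.62, GFP+RFP- arrays 1.15 ± 0.21 and GFP-RFP- arrays 1.13 ± 0.41, SD). This is the probe that begins with the repeat. Probe 1 switched between background and bright within every population: it exceeded background on 1 of 4 arrays of GFP+RFP+ (4338), 1 of 5 GFP-RFP+ arrays (2206), 3 of 5 GFP+RFP- arrays (2062 to 3285) and 3 of 5 GFP-RFP- arrays (32.1, 6320 and 2645). Probe 2 was above on 3 of 4, 4 of 5, 4 of 5 and 4 of 5 arrays in the same order of populations, and its intensity spanned 22.9 to 1513, 7.92 to 2620, 5.36 to 3432 and 21.2 to 1124. Which of the 3 follows Msl1 messenger RNA best was not tested.

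Kat8, the acetyltransferase, had a signal that varied widely between arrays of the same population. Its intensity was 15.8, 12.8, 11.5 and 5.43 in GFP+RFP+ cells, above background on 0 of 4 arrays, and 8.26, 45.6, 556, 7479 and 1098 in GFP-RFP+ cells, above on 4 of 5. It was 24.5, 27.5, 1139, 20 and 3117 in GFP+RFP- cells, above on 3 of 5, and 427, 22.7, 470, 4266 and 1994 in GFP-RFP- cells, above on 4 of 5. Dim and bright arrays occurred side by side in 3 populations, and only GFP+RFP+ cells were dim throughout. An array counted as above background when at least 0.5 of its spots were, which GFP+RFP- replicate 4 met with 5 of 10.

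The repeated Kat8 spots separate the error of a spot from that between arrays. On GFP-RFP+ replicate 4 the 10 spots read 6580 to 7990, on GFP-RFP+ replicate 3 they read 531 to 591, and on GFP-RFP- replicate 4 they read 3760 to 4670. Within an array the bright readings were thus close together, while arrays of the same population lay far apart. In GFP+RFP+ cells 0, 2, 1 and 0 of the spots used were individually above background.

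**Figure D3:**
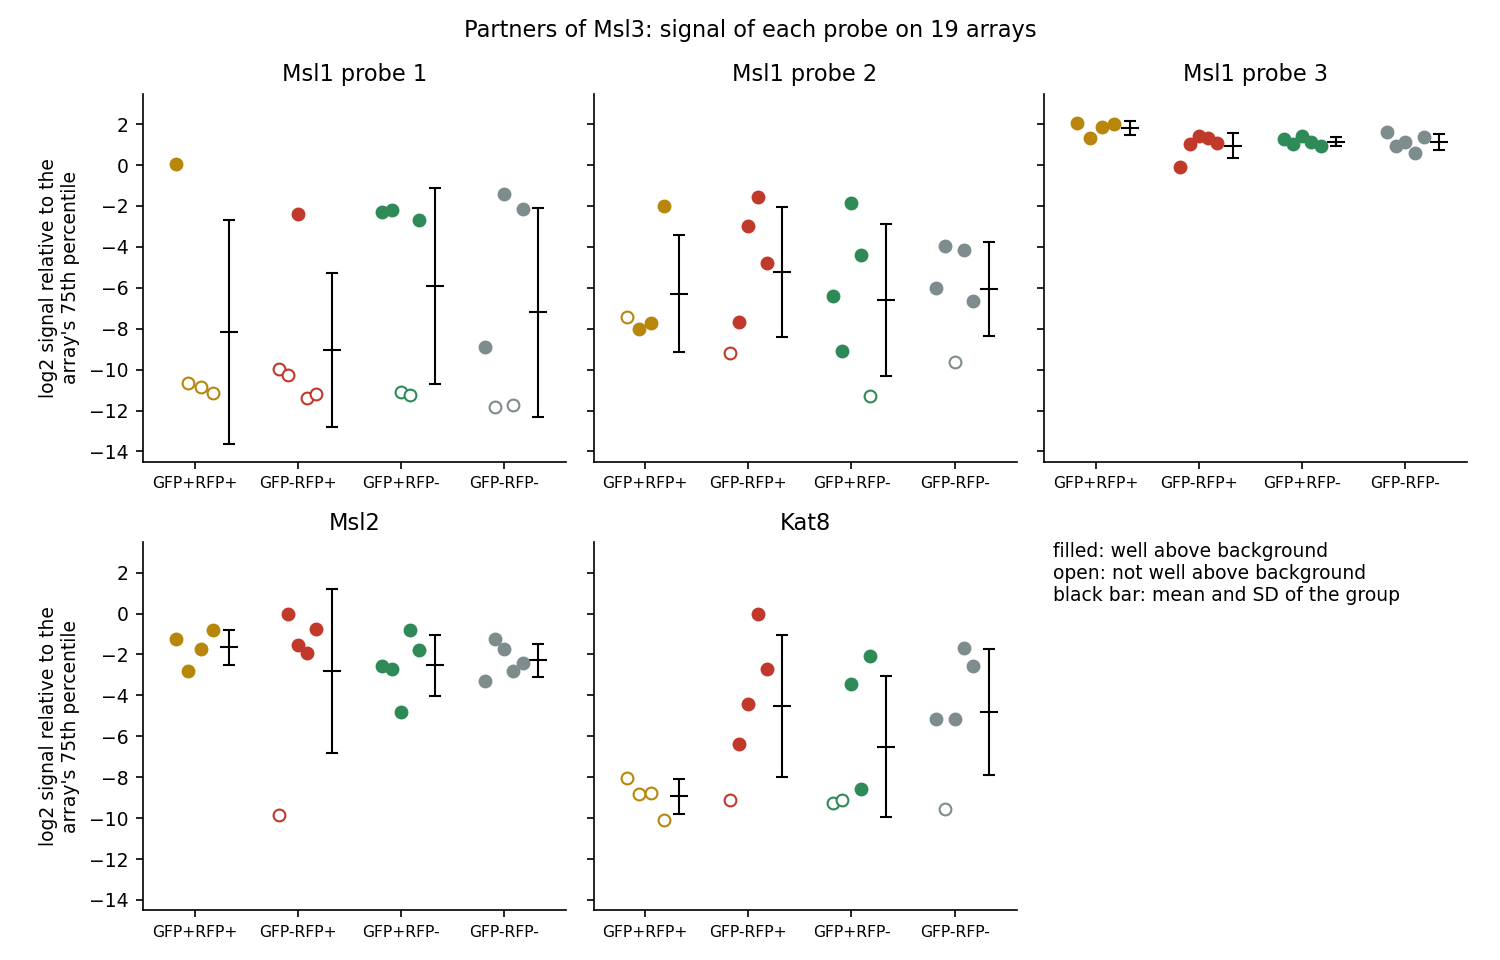
Log2 signal relative to each array's 75th percentile (vertical axes) of the 3 Msl1 probes, Msl2 and Kat8 on every array of the 4 populations (horizontal axes), with population mean ± SD, where filled points are arrays well above background and open points are not. Msl1 probe 3 spans -0.11 to 2.07, whereas Kat8 and Msl1 probe 1 hold bright and dim arrays within a population.

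None of the 3 partners passed the test in any comparison. For GFP-RFP+ against GFP-RFP- cells the limma model called 1.86% of 20541 genes at an adjusted p under 0.05 (Benjamini-Hochberg over all genes). The differences there were -0.19 ± 0.36 (SE, log2) for Msl1 (adjusted p = 0.8), -0.53 ± 1.38 for Msl2 (adjusted p = 0.86) and 0.29 ± 1.81 for Kat8 (adjusted p = 0.94). Msl1 is represented here by probe 3, which carries the repeat, and its probes 1 and 2 gave -1.84 ± 2.86 and 0.84 ± 1.85. The standard errors of these 2 probes, of Msl2 and of Kat8 are wide, so the values do not show that levels were alike.

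In GFP+RFP+ against GFP+RFP- cells, where 0.204% of genes were called (0.0876% higher and 0.117% lower), the differences were 0.67 ± 0.38 for Msl1 (adjusted p = 0.37), 0.88 ± 1.46 for Msl2 (adjusted p = 0.79) and -2.44 ± 1.92 for Kat8 (adjusted p = 0.53). Taking the mean of the Msl1 probes gave -0.41 in place of 0.67. The Kat8 arrays overlapped, and its difference was -0.77 with normexp background correction and -1.33 without GFP+RFP- replicate 5. Within slide 2, which held a single GFP+RFP+ array, it was 0.07. In the other direction it was -3.21 with replicate number as a block and -3.65 with scan day as a block. Within slide 3, also with a single GFP+RFP+ array, it was -8.02. GFP+RFP- against GFP-RFP- cells, at 0.00974% of genes called, gave 0.02 ± 0.36 for Msl1, -0.25 ± 1.38 for Msl2 and -1.68 ± 1.81 for Kat8 (limma, adjusted p = 1 each).

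Among RFP+ cells, GFP+RFP+ against GFP-RFP+, the model called 0.00487% of genes, which is Msl3, and its values chose it. Msl1 differed by 0.87 ± 0.38 (adjusted p = 0.91), Msl2 by 1.16 ± 1.46 (adjusted p = 0.94) and Kat8 by -4.41 ± 1.92 (adjusted p = 0.91). The Kat8 arrays overlapped here too, and its difference was -2.48 with normexp, -1.68 within slide 1, -3.28 without GFP-RFP+ replicate 4 and -5.55 without GFP-RFP+ replicate 1. Within slide 3, with a single GFP+RFP+ array, it was -8.72. The difference between the IL-2 reporter effects in RFP+ and RFP- cells was 0.86 ± 0.52 for Msl1, 1.41 ± 2.01 for Msl2 and -2.73 ± 2.64 for Kat8 (limma, adjusted p = 1 each), where 0.00974% of genes were called. The comparisons share populations, so their values are not independent of each other.

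**Figure D4:**
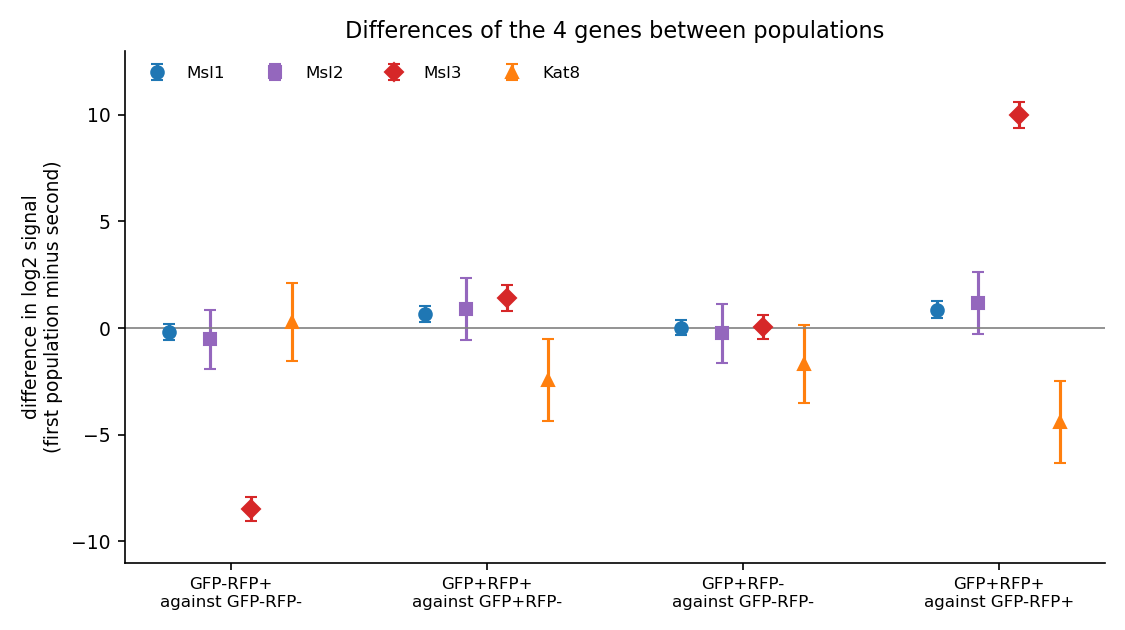
Difference in log2 level ± SE (vertical axis, first population minus second) of Msl3, Msl1 (probe 3), Msl2 and Kat8 in the 4 comparisons (horizontal axis). Msl3 lies at -8.49 for GFP-RFP+ against GFP-RFP- and at 9.97 for GFP+RFP+ against GFP-RFP+, while the partners lie between -4.41 and 1.16.

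Genes of related acetylation machinery were taken from 6 lists with 50 genes, of which 46 were in the model (Phf20, Wdr5, Brpf3 and Jade3 were not). In GFP-RFP+ against GFP-RFP- cells 1 of 46 was called lower and 0 higher, beside 1.32% of all genes called lower and 0.54% higher. The called gene was Kansl2, a subunit of the NSL complex that also contains Kat8. Over the 46 genes the median log2 difference was -2.34, with 36 below 0, beside -0.29 and 57% below 0 over all genes. That median was -0.99 with the percent of detected probes as a covariate (0.14 over all genes), -1.04 with the percentile over all probes (1.02 over all genes) and -0.74 within slide 1 (-0.02 over all genes). By list the medians were -3.37 for the NSL complex, -3 for the MRG domain paralogs of Msl3, -2.58 for other MYST acetyltransferases and their partners, -1.9 for the TIP60 complex, -2.88 for other acetyltransferases and -0.52 for histone deacetylases. Kansl2 was the only gene of any list to pass, so the medians describe values that did not pass the test.

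Kansl2 had intensities of 16.91, 12.33, 5226, 23.77 and 12.07 in GFP-RFP+ cells and 7073, 5017, 21330, 6159 and 7892 in GFP-RFP- cells. Only GFP-RFP+ replicate 3 reached the range of the GFP-RFP- arrays. The means were -7.02 ± 3.3 and -0.85 ± 0.8 log2 units (SD, n = 5 each), a difference of -6.17 ± 1.39 (SE; limma adjusted p = 0.036). The call ended when each array's percent of detected probes was a covariate (difference -2.95, adjusted p = 0.58) and without the arrays under 30% detected (difference -5.37, adjusted p = 0.11). It also ended when any 1 GFP-RFP- array was left out (adjusted p = 0.06 to 0.083) or GFP-RFP+ replicate 1, 2 or 5 (adjusted p = 0.086, 0.085 and 0.076). Within slides 1, 2 and 3 the difference was -4.24, -6.81 and -8.22. Slide 2 held a single GFP-RFP+ array and slide 3 a single GFP-RFP- array. Kansl2 was also low in GFP+RFP+ cells, at -8.15 ± 0.72 (SD, n = 4), above background on 2 of 4 arrays. GFP+RFP- cells averaged -4 ± 2.76 (SD, n = 5). The difference was -4.15 ± 1.47 (SE) for GFP+RFP+ against GFP+RFP- cells (limma adjusted p = 0.17). For GFP+RFP+ against GFP-RFP+ cells it was -1.13 ± 1.47 (limma adjusted p = 0.94).

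Among the paralogs of Msl3, Morf4l1, an MRG domain protein of the TIP60 complex, differed by -5.07 ± 2.3 between GFP-RFP+ and GFP-RFP- cells (limma adjusted p = 0.2) and Msl3l2 by 2.87 ± 1.48 (adjusted p = 0.26), so neither passed. The acetyltransferase Kat6a was above background on 0 of 5 arrays in GFP-RFP+ and 4 of 5 in GFP-RFP- cells, a difference of -4.78 ± 1.64 (adjusted p = 0.11). Jade1, a scaffold of a MYST complex, gave -5.69 ± 1.98 (adjusted p = 0.12), Mrgbp of the TIP60 complex -6.65 ± 1.99 (adjusted p = 0.084) and the acetyltransferase Kat2b -4.35 ± 2.34 (adjusted p = 0.28). None of these passed the test.

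In GFP+RFP+ against GFP+RFP- cells 0 of the 46 genes were called by limma, 7 had an unadjusted p under 0.05, and their median difference was -1.15 beside 0.21 over all genes. Actl6a, an actin-related subunit of chromatin complexes, was detected on 0 of 4 arrays in GFP+RFP+ and 4 of 5 in GFP+RFP- cells, at a difference of -8.15 ± 2.66 (adjusted p = 0.15). The acetyltransferase Hat1 differed by -7.43 ± 2.47 (adjusted p = 0.15) and the deacetylase Hdac1 by -4.04 ± 1.38 (adjusted p = 0.16). In GFP+RFP- against GFP-RFP- cells 0 were called and 4 had an unadjusted p under 0.05, with a median of -0.44 beside -0.02, and the deacetylase Hdac2 gave -4.47 ± 2.03 (adjusted p = 0.97). There Actl6a gave 7.11 ± 2.51 (limma adjusted p = 0.8). In GFP+RFP+ against GFP-RFP+ cells 0 were called and 1 had an unadjusted p under 0.05, with a median of -0.12 beside 0.41, and for the interaction 0 were called and 3 were under 0.05, with a median of 0.51 beside 0.4.

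Of the 5 genes whose levels were most like those of Msl3 over the 19 arrays, ranked by Pearson correlation of log2 level, 4 are described here. The values are a description, since the same 5 dim GFP-RFP+ arrays weigh in every value. Paxbp1 came first at r = 0.901 (Spearman 0.712), followed by Rab2a, a small GTPase of vesicle traffic, at 0.839 (0.742). Trnau1ap, a factor of selenocysteine tRNA, had 0.831 (0.572) and Vps33b, a vesicle sorting protein, 0.826 (0.739). On GFP-RFP+ arrays Paxbp1 and Rab2a were above background on 2 of 5, and Trnau1ap and Vps33b on 0 of 5. The last 2 were each also missing elsewhere: both were above on 3 of 4 GFP+RFP+ arrays, and Vps33b on 4 of 5 GFP+RFP- arrays.

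**Figure D5:**
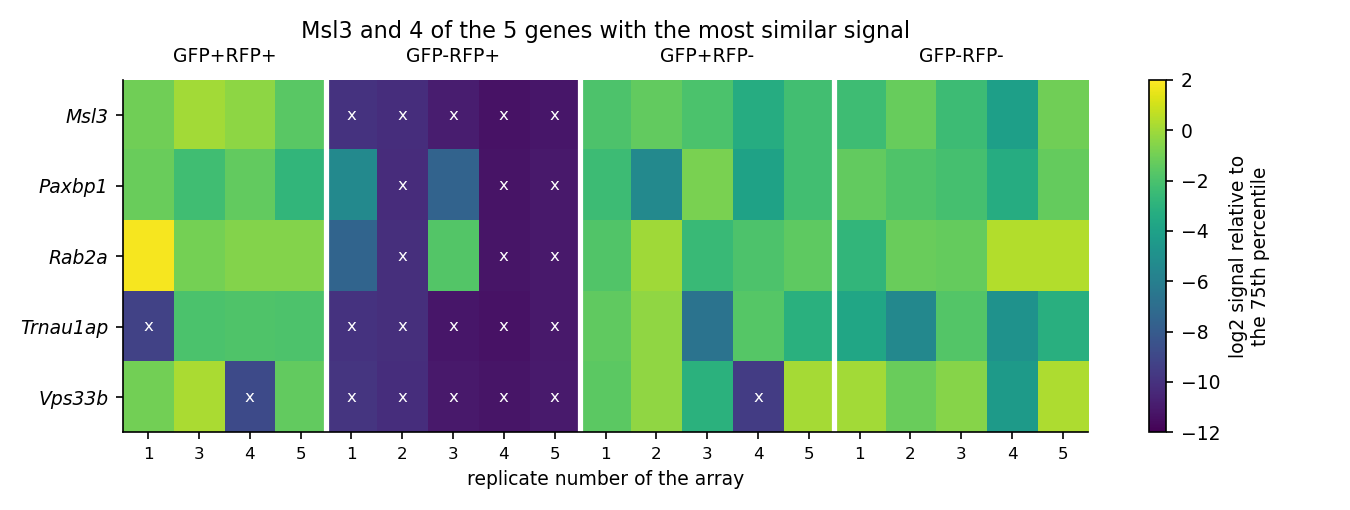
Heat map of log2 signal relative to each array's 75th percentile (colour) for Msl3 and 4 of the 5 genes most correlated with it (rows) on the 19 arrays, by population and replicate number (columns), where a cross marks a signal not well above background. Msl3 is at its lowest on all 5 GFP-RFP+ arrays, and Paxbp1 and Rab2a are above background on 2 of them.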

How the data were processed

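The intensity values in the authors' deposited scanner files are linear and come from Agilent Feature Extraction (version 10.7.3.1, per the submitters' processing notes), with background subtracted within each array per the file headers. Global PCR amplification of the cDNA preceded Cy3 labelling, per the labels' protocols. A series table of log2 values was also deposited, and no source used here states its normalization. Each array has 62976 spots, 3671 of them controls. After 3296 flagged spots over all arrays were left out, repeated spots were averaged. Log2 processed signal was taken relative to each array's 75th percentile over those 6612 probes that every array detected well above background. A minimum of 4 arrays above background kept 28101 probes, and the probe with the highest mean signal stood for its gene (20541 genes). RefSeq accessions named 27235 probes. Coordinates are mm9, from the files.

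A limma model (limma 3.58.1, R 4.3.3) was fitted to all 4 populations together, with Benjamini-Hochberg adjustment and a threshold of 0.05. The pipeline was tested on simulated data. The members, lists and probe set for the percentile were chosen with earlier results of these data known. Named genes are every probe of the 4 members, the called members of each related list (or the 2 with the smallest p where none was called), and the 5 genes with a usual symbol most correlated with Msl3, of which 1 is not reported here, nor is the sequence of 1 probe. Genes just beside Msl3 in the detection count were named after their values were seen. Alternatives covered background correction (normexp, offset 50), scaling, filtering, probe choice, blocks for replicate number, slide and scan day, array quality, fits within slides, and leaving out each array. Figures were drawn with matplotlib 3.10.9.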

Additional observations from a re-analysis of the deposited data

Results flagged for a closer look

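The IL-2 reporter difference of Msl3 was 9.91 log2 units larger among RFP+ than among RFP- cells, and is listed because the effect of 1 reporter differed between RFP+ and RFP- cells. Msl3 was chosen for this pattern, so the value is a description.

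Within a population, 5 of 24 sets of arrays had a sample far from the rest. The rule flags about 1 in 20 by chance when values are normally spread and sets are separate. Several of these probes switch between background and bright and the sets share arrays, so the count is not read as an excess. Msl1 probe 1 stood at 0.07 on GFP+RFP+ replicate 1 and at -2.41 on GFP-RFP+ replicate 3, each far above the other arrays of its population on the log2 scale. Msl1 probe 2 stood at -1.98 on GFP+RFP+ replicate 5, above the others. On GFP-RFP+ replicate 1 Msl1 probe 3 stood at -0.11 and Msl2 at -9.84, both below the other 4 arrays. That array had the fewest probes above background (22%), and its part in these values was not tested.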

How the results depend on the processing

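The direction of the Msl3 differences that exceeded the spread held in every setting run, and their size moved. The GFP-RFP+ against GFP-RFP- difference was -7.18 with the percentile over all probes, -4.67 with normexp, -7.54 within slide 2 and -10.22 within slide 3. Slides 2 and 3 hold a single array of some populations. With normexp the GFP+RFP+ against GFP-RFP+ difference was 6.16 and the interaction 6.08, and within slide 3 the interaction was 10.87. The GFP+RFP- against GFP-RFP- difference turned to -1.23 within slide 3. Leaving out 1 array at a time gave -8.96 to -8.19, 9.71 to 10.26 and 9.62 to 10.38 for the first 3 of these differences. The cause of these shifts was not tested, except that normexp adds an offset of 50 to dim and bright spots alike. Msl1, Msl2 and Kat8 were called in none of 245 values under other settings (lowest adjusted p = 0.13, with 34 changes of sign) and in none of 285 with an array left out (lowest 0.31). A filter for detection on all arrays kept only Msl1. Of related genes, 3 were called for GFP-RFP+ against GFP-RFP- under the percentile over all probes and 0 when each array's percent of detected probes was a covariate. Their median stayed below that of all genes in that comparison under every setting. Calls over all genes in that comparison, 383 (111 higher) in the reported setting, varied from 0 within slides 2 and 3 to 4836 (84.7% higher) with normexp. They were 4034 (87.2% higher) with the percentile over all probes, 3472 (81.9% higher) with quantile normalization and 3599 (81.2% higher) in the series table. With each array's percent of detected probes as a covariate they fell to 5 (0 higher), and without the arrays under 30% detected to 27 (7 higher). In GFP+RFP+ against GFP+RFP- cells they varied from 0 within slides to 5004 (94.4% higher) with normexp, beside 42 (18 higher), and were 10 (0 higher) with the percentile over all probes, 24 (29.2% higher) with quantile normalization and 22 (22.7% higher) in the series table. Leaving out 1 array gave 85 to 1171 calls in the first of these comparisons and 2 to 300 in the second. The percentile over all probes put the median of all genes in the first comparison at 1.02, against -0.29. Between populations, deviations from the population mean were correlated at -0.07 to 0.09 in 27 same-number pairs and at -0.27 to 0.18 in 108 other pairs. Of 19 arrays, 6 correlated best with an array of their own number. These correlations cannot tell whether arrays of the same number share an animal or a sort. With the replicate block the Msl3 differences were -8.49 and 10.16, and 188 and 8 genes were called in the 2 comparisons of RFP+ with RFP- cells. Arrays with few detected probes limit what can be said of dim genes.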
